A study of Mus musculus with 24 samples.

Results

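The cerebellum of 3-month-old mice was compared between animals labelled as Lyst knockouts and wild-type (WT) animals, in 6 of the 24 RNA libraries of the study. The libraries were chosen by their labels, as all cerebellar libraries of that age, and 14169 of the 23443 genes in the count table passed a filter on low counts and were tested. The study made a mouse that lacks Lyst to follow the neurological side of Chediak-Higashi syndrome, and sequenced polyadenylated RNA from frozen forebrain (labelled cortex) and right cerebellar hemisphere at 3 and 18 months. The 3 knockout libraries come from homozygous ΔLYST-B6 mice, in which guide RNAs against exons at either end of the gene were used to delete the stretch between them, on a C57BL/6J background. The 3 controls are WT C57BL/6J mice of the same age.

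Several features limit the groups as a model. The line descends from a single founder, made in fertilized eggs of 129S1/SvImJ females mated with C57BL/6J males, and it was backcrossed to C57BL/6J for 3 generations. Both lines go back to crosses of heterozygotes and were then bred apart in parallel, the knockouts as homozygotes, so the deletion cannot be told apart from other differences between the lines. All 3 knockout animals carry the number 19351, and the WT animals carry 19311 (replicate 1) and 19352 (replicates 2 and 3), so these numbers cannot be told apart from the genotype either. Below, the replicates of each group are always given in the order 1, 2, 3, and levels are in CPM, that is, counts relative to the normalized size of the library, which compare a gene between libraries and not with other genes.

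Lyst encodes a very large cytoplasmic protein with a BEACH domain, and its loss gives giant lysosomes and enlarged lysosome-related organelles such as melanosomes and cytotoxic granules. The cerebellar cortex holds a dense layer of granule cells, a sheet of large Purkinje cells with their Bergmann glia, several kinds of inhibitory interneuron and the excitatory unipolar brush cells. Neurons that fire or receive growth signals switch on immediate early genes within minutes, many of them through the transcription factor CREB, and the resulting RNAs decay soon afterwards.

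The depth was 27969529, 16774444 and 23400897 counts in the ΔLYST-B6 libraries and 25296578, 27536209 and 26415004 counts in the WT libraries. ΔLYST-B6 replicate 2 was the shallowest of the 6. A count of 0 allows up to 3 counts, or 0.107 to 0.177 CPM depending on the library, and this covers counting error only. In each library, 2.99% to 3.69% of all counts fell on its 10 most abundant genes.

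In this comparison, transcripts of Lyst itself were not lower in the libraries labelled ΔLYST-B6. Lyst (ENSMUSG00000019726.12, chr13:13590397-13778803 in GRCm38) stood at 90.6, 99.3 and 74.3 CPM in the ΔLYST-B6 libraries and at 97.0, 87.4 and 87.8 CPM in the WT libraries. The groups overlapped, and the log2 fold change (ΔLYST-B6 over WT) was −0.04 with a standard error (SE) of 0.12. In the forebrain of the same animals Lyst was higher without overlap (131 to 138 against 111 to 115 CPM, log2 fold change 0.26). In the cerebellum of other animals at 18 months it was lower without overlap (70.7 to 81.2 against 90.9 to 98.1 CPM, −0.33). Neither was called in edgeR (adjusted p 0.146 and 0.169). Counts per gene do not show which exons the reads fell on, so they neither show nor exclude the deletion. For this reason ΔLYST-B6 and knockout stand throughout for the labels of the libraries. Around the locus, 16 tested genes start within 2 Mb of Lyst, and their median log2 difference was 0.07. Lgals8 and Ggps1 were the 2 of 16 neighbours whose groups did not overlap, both higher (3.77% over all genes), with small log2 fold changes of 0.06 and 0.08. None of the 16 reached an unadjusted p under 0.05 in edgeR or was called by DESeq2.

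The cerebellar label was checked on markers, with the forebrain libraries of the same animals beside them. The Purkinje cell gene Itpr1 stood at 1162 to 2219 CPM, the granule cell gene Cbln1 at 835 to 1575 CPM and the interneuron gene Pvalb at 654 to 960 CPM. In the forebrain libraries these genes were lower, at 413 to 601, 20.3 to 40.5 and 66.7 to 86.3 CPM. Neurod1, a textbook granule cell gene, had 0.0591 to 0.505 CPM in the 6 libraries, and Reln had at most 2 counts in a library. The cortical gene Emx1 was near the floor, at 0.296 to 1.19 CPM. The whole list of forebrain neuron genes was not, with a sum of 204 to 267 CPM. Its member Ppp1r1b stood at 132 to 235 CPM here and at 384 to 533 CPM in the forebrain libraries.

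Single libraries stood apart from the rest in ways that did not follow the genotype. On the first principal component, which held 47.9% of the variance, ΔLYST-B6 replicate 2 (45.8) and ΔLYST-B6 replicate 3 (−31.6) lay at opposite ends, with the WT libraries at 2.53, −25.9 and 18.4 between them. On the second component (17.8%) WT replicate 3 had the highest value, 27.9, and Ttr, Kcne2 and Kl of the choroid plexus had the largest weights. The summed level of 10 choroid plexus genes was 2902, 1161 and 1272 CPM in the ΔLYST-B6 libraries and 2732, 3004 and 63.3 CPM in the WT libraries, so WT replicate 3 held little of that tissue. Ttr, the thyroid hormone carrier of the choroid plexus, with the highest mean CPM of that list, had 36.5 CPM in that library and 1068 to 2758 CPM in the others.

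ΔLYST-B6 replicate 2 had the lowest sums of granule and Purkinje cell genes. Its 12 granule cell genes summed to 4540 CPM, against 7452 and 8179 CPM in the other 2 ΔLYST-B6 libraries and 6788 to 7801 CPM in WT. The Purkinje cell list summed to 5356 CPM in it and to 6643 to 7836 CPM elsewhere. The oligodendrocyte list was at 15527 CPM in the same library, close to the 14980 CPM of WT replicate 3, and at 7655 to 11674 CPM in the other 4. Tph2 of the brainstem raphe, picked after its values were seen, had 50.03 CPM in this library and 0.463 to 1.44 CPM in the other 5. In bulk RNA, fewer cells of a type and less RNA per cell cannot be told apart.

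**Figure D1:**
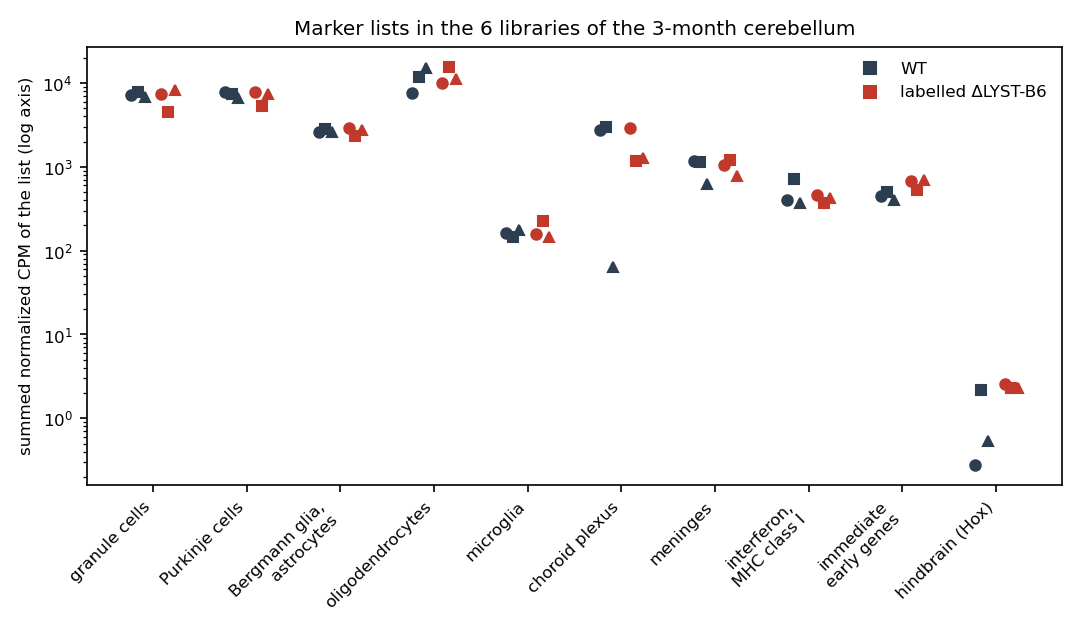
Summed normalized CPM (log axis) of 10 marker lists in each of the 6 libraries, with circles, squares and triangles for replicates 1, 2 and 3. WT replicate 3 is low for choroid plexus (63.3 CPM), WT replicate 2 is high for interferon and MHC class I genes (722 CPM), and the hindbrain list is higher in all 3 ΔLYST-B6 libraries (2.29 to 2.60 CPM) than in WT (0.279 to 2.20 CPM).

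The comparison of the genotypes asks which transcripts differ in the cerebellum of young adults. Pik3c3 was the 1 gene that passed edgeR's quasi-likelihood test at 0.05 once its p was adjusted by the Benjamini-Hochberg method, which is 0.00706% of the 14169 genes tested, and it was higher in the ΔLYST-B6 libraries. Without adjustment, 151 genes (1.07%) were higher and 139 (0.981%) lower at p under 0.05, fewer in all than the share that such a threshold allows when nothing differs. That did not hold in every fit. Against 290 genes in all, 170 of 14361 to 750 of 14398 passed when each library was left out. With a block for the replicate numbers 756 of 14169 did, and the 750 and 756 are above that share. The 3 libraries of each group did not overlap for 534 genes (3.77%) in which ΔLYST-B6 was higher and for 503 (3.55%) in which it was lower. DESeq2, with its Wald test, called 16 of 14697 genes (0.109%), and edgeR with a block for the replicate numbers in the titles (the replicate block) called 6 of 14169 (0.0423%). ΔLYST-B6 replicate 3 is the only library with number 3, so it does not enter the genotype effect under that block. With 3 libraries in each group the smallest p of an exact permutation test is 0.1, so all p-values below come from models that pool the spread over genes. The supplementary tables of the study name 15 genes for this comparison, where its text counts 14 differentially expressed genes. Of the 15, 14 were tested, and 11 were higher and 3 lower without overlap (median log2 difference 0.83, from 0.75 to 0.90 over the libraries left out). They were picked on these same samples and are not independent evidence of any direction.

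Pik3c3 (ENSMUSG00000033628.15, chromosome 18) encodes the catalytic subunit of the class III phosphoinositide 3-kinase, Vps34, which makes the phosphatidylinositol 3-phosphate (PI3P) of endosomes and autophagosomes. Its level was 132, 135 and 146 CPM in the libraries labelled ΔLYST-B6 and 57.1, 57.4 and 56.7 CPM in WT. Every ΔLYST-B6 library was above every WT library, by far more than either group spread, with 138 ± 7.12 CPM against 57.1 ± 0.351 CPM (mean ± SD, n = 3 each). The log2 fold change was 1.27 with an SE of 0.08, and the adjusted p was 0.00308 in edgeR. Over 14 alternatives the adjusted p ran from 5.41e-37 in DESeq2 to 0.0853, and it passed the threshold in 12 of them. Without WT replicate 1 the adjusted p was 0.0853 and without WT replicate 2 it was 0.0699, with log2 fold changes of 1.27 and 1.28.

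The partners of Vps34 in its complexes did not share this difference. Becn1, which encodes the Beclin 1 scaffold, was at 102, 102 and 106 CPM in the ΔLYST-B6 libraries and at 100, 106 and 103 CPM in WT. Pik3r4, for the regulatory kinase Vps15, was at 33.0, 32.3 and 30.7 CPM against 38.3, 32.5 and 31.4 CPM. Both pairs of groups overlapped, as they did for Atg14 of the autophagy complex (log2 fold change −0.08), Uvrag of the endosomal complex (0.02) and its inhibitor Rubcn (0.01). Nrbf2, an accessory subunit, was slightly higher in each ΔLYST-B6 library, at 22.1, 22.5 and 22.9 CPM against 21.7, 19.4 and 19.6 CPM (log2 fold change 0.15, SE 0.09).

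Of 32 genes of PI3P metabolism and autophagy, 31 were tested and had a median log2 difference of 0.01 (0.01 to 0.02 over the libraries left out), against −0.00 over all 14169 genes. Pik3c3 was the 1 called (0.00706% over all genes). At an unadjusted p under 0.05 in edgeR, 3 were higher and 0 lower (1.07% and 0.981% over all genes). Without overlap, 5 were higher (Pik3c3, Mtmr2, Rb1cc1, Nrbf2 and Zfyve1) and Ambra1 was lower (3.55% over all genes). Pik3c3 aside, 4 of 30 were higher, against 3.77% of all genes. Rb1cc1, for the scaffold FIP200 of the ULK1 kinase complex, had 90.3, 90.3 and 88.9 CPM in the ΔLYST-B6 libraries and 80.8, 72.1 and 76.8 CPM in WT, a log2 fold change of 0.23 that was not called. Mtmr2, a phosphatase that removes the phosphate Vps34 adds, had a log2 fold change of 0.25 with an SE of 0.10. The cargo receptor gene Sqstm1 overlapped between the groups, at 390, 478 and 362 CPM against 434, 375 and 431 CPM, and so did Map1lc3b of the autophagosome membrane. On the chromosome, Rit2 was the 1 tested gene within 1 Mb of Pik3c3, and its groups overlapped (log2 fold change 0.18, SE 0.23).

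**Figure D2:**
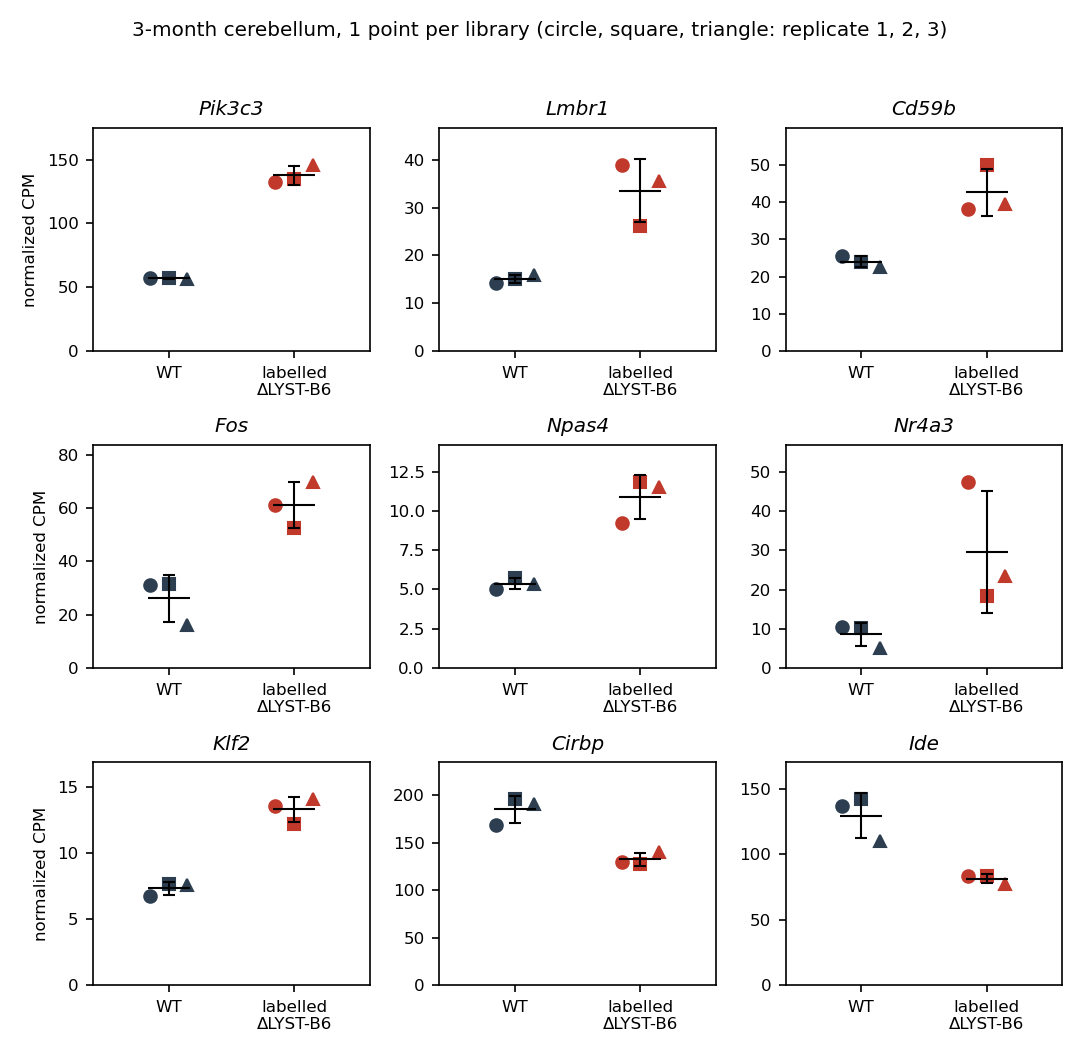
Normalized CPM of 9 genes in the 3 WT and the 3 ΔLYST-B6-labelled libraries, with circles, squares and triangles for replicates 1, 2 and 3, a horizontal line at the mean and bars of 1 SD. The groups do not overlap for any of the 9, and Pik3c3 has 132 to 146 CPM in the ΔLYST-B6 libraries against 56.7 to 57.4 CPM in WT.

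Of 17 tested immediate early genes, 11 were higher in every ΔLYST-B6 library than in any WT library. None of the 17 was called in edgeR after adjustment, and the list was not tested as a set. The list was drawn up with earlier results of these data known, and 4 of its genes (Fos, Npas4, Klf2 and Nr4a1) are also named by the study for this comparison, so its counts are not independent evidence. Of 19 listed, 17 were tested, and 11 were higher without overlap (3.77% over all genes) and 1, Egr1, was lower (3.55%). At an unadjusted p under 0.05, 10 were higher and 0 lower in edgeR (1.07% and 0.981% over all genes), and DESeq2 called 5 of them, all higher (0.109% over all genes). The median log2 difference of the 17 was 0.53, against −0.00 over all genes tested, and it ran from 0.47 to 0.64 when each library was left out in turn. Their summed level was 681, 530 and 696 CPM in the ΔLYST-B6 libraries and 453, 500 and 399 CPM in WT. The lowest ΔLYST-B6 library and the highest WT library were thus close to each other on this sum.

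Fos, for a subunit of the transcription factor AP-1, was at 61.1, 52.6 and 69.8 CPM in the ΔLYST-B6 libraries and at 31.2, 31.4 and 16.1 CPM in WT. WT replicate 3 was the lowest of the 6, and the groups did not overlap (log2 fold change 1.22, SE 0.26). Its adjusted p was 1.00 in edgeR and 0.000996 in DESeq2, the lower end of a range that reached 1.00 over its 14 alternatives. Npas4, a neuronal transcription factor induced by calcium entry, was at 9.25, 11.8 and 11.5 CPM against 5.02, 5.74 and 5.36 CPM. Each ΔLYST-B6 library was well above each WT library (log2 fold change 1.01, SE 0.16), with adjusted p-values from 0.000571 in DESeq2 to 1.00 over its alternatives. Klf2, a zinc-finger factor of endothelium and neurons, had 13.6, 12.2 and 14.1 CPM against 6.77, 7.65 and 7.60 CPM, a log2 fold change of 0.86 with an SE of 0.14.

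The 3 orphan nuclear receptors of the Nr4a family spread more between replicates. Nr4a1 had 69.8, 42.9 and 67.2 CPM in the ΔLYST-B6 libraries and 38.5, 32.5 and 22.4 CPM in WT. Nr4a2 had 63.9, 31.5 and 60.0 CPM against 19.4, 28.6 and 11.6 CPM. Nr4a3 had 47.4, 18.3 and 23.4 CPM against 10.5, 10.2 and 5.09 CPM. In each of the 3 genes ΔLYST-B6 replicate 2 was the lowest of its group and still above WT, and WT replicate 3 was the lowest library. The log2 fold changes were 0.95 (SE 0.24), 1.38 (SE 0.40) and 1.80 (SE 0.44). All 3 genes passed in edgeR with the replicate block, at adjusted p-values of 0.0269, 0.0482 and 0.000779. Among the ΔLYST-B6 libraries, replicate 3 does not enter the genotype effect of that fit. Over all 14 alternatives the adjusted p-values ran up to 1.00 for each of the 3.

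The other members of the list were mixed. Dusp1, a phosphatase that shuts off MAP kinases, was at 117, 87.5 and 144 CPM in the ΔLYST-B6 libraries and at 73.8, 82.6 and 49.9 CPM in WT, without overlap. Klf4 (log2 fold change 0.75), Fosb (0.54), Junb (0.34) and Btg2 (0.28) were also higher in every ΔLYST-B6 library than in any WT library. Jun overlapped at 106, 90.9 and 112 CPM against 89.8, 108 and 102 CPM. Ier2, Gadd45g and Egr4 overlapped as well, with log2 fold changes of 0.04, 0.00 and 0.05. Arc, a synaptic capsid-like protein gene induced by strong firing, was at 20.1, 24.2 and 21.4 CPM against 22.7, 22.9 and 28.0 CPM. Egr1, its usual companion, was at 39.8, 42.7 and 37.3 CPM against 47.1, 43.4 and 46.3 CPM, with ΔLYST-B6 slightly below WT. Outside the list, 2 genes with small p-values were higher without overlap and not called: Bdnf, a neurotrophin, at 28.1, 23.1 and 23.4 CPM against 17.2, 15.9 and 17.9 CPM, and Spry4, an inhibitor of receptor tyrosine kinase signalling, at 24.1, 18.6 and 18.2 CPM against 13.9, 10.9 and 12.7 CPM.

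The sum of another list also differed between the groups. The summed level of 11 Hox genes of the hindbrain was 2.60, 2.31 and 2.29 CPM in the ΔLYST-B6 libraries and 0.279, 2.20 and 0.532 CPM in WT, with WT replicate 2 just under the ΔLYST-B6 libraries. Hoxb3, with the highest mean CPM of the list, was at 0.747, 0.710 and 0.475 CPM against 0.0797, 0.722 and 0.0760 CPM. This rests on few reads, 21, 12 and 11 counts against 2, 20 and 2 counts, and WT replicates 1 and 3 were below the floor. Hoxb3 was the 1 of the 11 that was tested (log2 difference 1.39, from 0.99 to 2.15 over the libraries left out) and its groups overlapped, and the part of this list in the difference of the immediate early genes was not tested. Neither was that of the granule and oligodendrocyte sums of ΔLYST-B6 replicate 2.

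**Figure D3:**
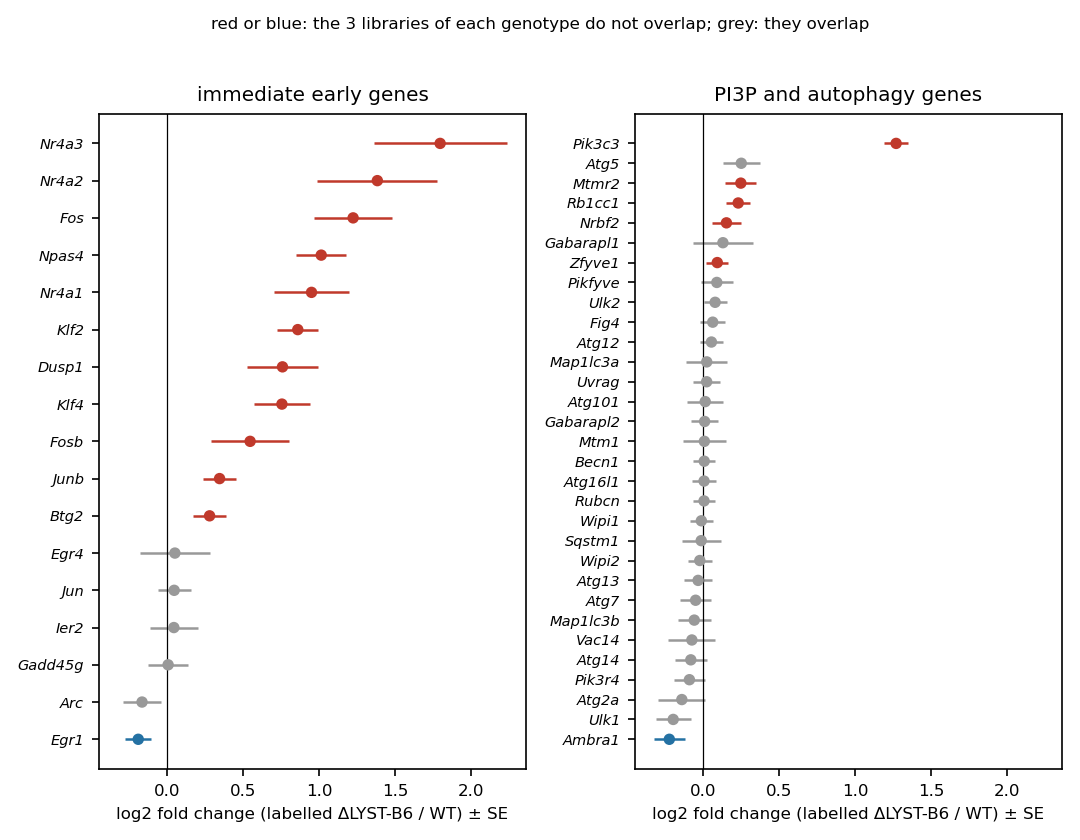
Log2 fold change (ΔLYST-B6-labelled over WT) with bars of 1 SE for the 17 tested immediate early genes (left) and the 31 tested genes of PI3P metabolism and autophagy (right). Genes whose 3 libraries per group do not overlap are red (higher) or blue (lower), 11 and 1 on the left and 5 and 1 on the right.

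The promoters of the immediate early genes were searched for TGACG, the core of the cyclic AMP response element, on either strand (CGTCA on the strand shown), and for the full palindrome TGACGTCA, which holds the core on both strands. The motif was chosen after the values were seen. RefSeq promoters (GRCm38.p6, 250 bases before to 50 after the start) were matched by symbol for 11 of the 11 higher genes and 3 of the 5 overlapping ones. Egr1, Arc and Ier2, which were not higher, had no match by symbol. Egr2, which was not tested, has 5 promoters, of which some hold the core and others lack it. The core is in all 11 of the higher genes, in Egr4 of the 3 overlapping ones (Jun and Gadd45g lack it) and in 20.8% of 32851 promoters, and the palindrome is in Dusp1 and Btg2 and in 1.79% of promoters. Since the list and the motif were picked with results of these data known, these shares do not test a link between the motif and the difference. A match describes the letters and is neither a bound site nor a cause. Shown are the promoters of 6 of the 11 genes that were higher without overlap, with each TGACG or CGTCA in capitals: Fos at chr12:85473640-85473939 on the plus strand, Npas4 at chr19:4989922-4990221 on the minus strand, Nr4a1 at chr15:101266596-101266895 on the plus strand, Nr4a2 at chr2:57123954-57124253 on the minus strand, Nr4a3 at chr4:48045055-48045354 on the plus strand and Dusp1 at chr17:26508423-26508722 on the minus strand. Nr4a1, Nr4a2 and Nr4a3 hold 4 matches each, Dusp1 holds 3, and Fos and Npas4 hold 2 each.
Fos: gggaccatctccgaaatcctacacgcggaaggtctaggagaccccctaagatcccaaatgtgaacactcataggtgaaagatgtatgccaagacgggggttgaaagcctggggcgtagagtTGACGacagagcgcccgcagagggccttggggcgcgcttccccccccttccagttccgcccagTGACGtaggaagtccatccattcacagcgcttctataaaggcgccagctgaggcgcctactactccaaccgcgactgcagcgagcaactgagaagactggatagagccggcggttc
Npas4: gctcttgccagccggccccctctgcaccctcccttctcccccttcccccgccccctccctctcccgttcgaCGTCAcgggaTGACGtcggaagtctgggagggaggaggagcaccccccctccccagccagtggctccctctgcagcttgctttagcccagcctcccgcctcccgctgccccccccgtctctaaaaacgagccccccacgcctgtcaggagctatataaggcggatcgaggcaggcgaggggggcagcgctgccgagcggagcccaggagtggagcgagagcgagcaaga
Nr4a1: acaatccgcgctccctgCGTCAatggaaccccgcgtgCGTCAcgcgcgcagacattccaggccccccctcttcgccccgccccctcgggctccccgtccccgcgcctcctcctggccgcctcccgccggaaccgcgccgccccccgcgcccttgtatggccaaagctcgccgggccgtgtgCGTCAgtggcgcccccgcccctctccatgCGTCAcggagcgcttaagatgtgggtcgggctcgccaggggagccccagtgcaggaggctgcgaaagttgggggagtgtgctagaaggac
Nr4a2: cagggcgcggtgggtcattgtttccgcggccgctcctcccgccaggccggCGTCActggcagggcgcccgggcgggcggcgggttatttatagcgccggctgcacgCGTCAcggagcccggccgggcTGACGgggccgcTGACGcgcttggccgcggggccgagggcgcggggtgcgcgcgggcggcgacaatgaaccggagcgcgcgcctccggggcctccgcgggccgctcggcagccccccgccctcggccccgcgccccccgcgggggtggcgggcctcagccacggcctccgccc
Nr4a3: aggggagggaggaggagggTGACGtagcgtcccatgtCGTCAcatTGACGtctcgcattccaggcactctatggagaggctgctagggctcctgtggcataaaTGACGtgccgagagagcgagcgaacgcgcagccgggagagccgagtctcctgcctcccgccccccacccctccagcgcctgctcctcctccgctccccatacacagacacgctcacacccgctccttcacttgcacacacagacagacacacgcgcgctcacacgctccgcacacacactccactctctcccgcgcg
Dusp1: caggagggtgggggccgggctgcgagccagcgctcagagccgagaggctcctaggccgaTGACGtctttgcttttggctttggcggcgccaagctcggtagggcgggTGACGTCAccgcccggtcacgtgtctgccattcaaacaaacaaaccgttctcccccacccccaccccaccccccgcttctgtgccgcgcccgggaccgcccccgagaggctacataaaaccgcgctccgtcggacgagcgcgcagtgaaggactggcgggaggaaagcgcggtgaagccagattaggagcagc

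Clock genes and cold-responsive genes were mixed. Of 18 listed, 17 were tested and none was called in edgeR, with a median log2 difference of 0.17 (0.10 to 0.21 over the libraries left out) against −0.00 over all genes. At an unadjusted p under 0.05, 3 of the 17 were higher and 2 lower (1.07% and 0.981% over all genes), 2 were higher and 2 lower without overlap (3.77% and 3.55%), and DESeq2 called Cirbp. Cirbp, an RNA-binding protein induced by mild cold, was at 129, 128 and 140 CPM in the ΔLYST-B6 libraries and at 168, 196 and 190 CPM in WT. All 3 ΔLYST-B6 libraries were below all 3 WT libraries, with a log2 fold change of −0.48 (SE 0.09) and adjusted p-values from 0.0129 in DESeq2 to 1.00 over 14 alternatives. Rbm3, its close relative with the same response to cold, overlapped at 233, 210 and 266 CPM against 231, 289 and 239 CPM.

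Among the clock genes, Per1, a repressor of the circadian loop, was at 164, 113 and 156 CPM in the ΔLYST-B6 libraries and at 104, 93.2 and 70.9 CPM in WT. The groups did not overlap, while those of Per2 did, at 82.4, 43.1 and 65.5 CPM against 51.5, 32.9 and 26.1 CPM. Arntl, for the activator BMAL1, was lower in each ΔLYST-B6 library, at 30.8, 28.3 and 30.3 CPM against 35.7, 37.1 and 34.3 CPM. Its partner Clock was flat, at 115, 112 and 111 CPM against 114, 115 and 116 CPM. Nr1d1, a repressor of Arntl, overlapped with a log2 fold change of −0.13. The time of day of tissue collection was not analysed here.

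Outside these groups, Lmbr1, a membrane protein gene whose intron holds the limb enhancer of Shh, had the next smallest p. It was at 38.9, 26.2 and 35.5 CPM in the ΔLYST-B6 libraries and at 14.2, 15.1 and 15.9 CPM in WT. The groups were well apart, ΔLYST-B6 replicate 2 being the lowest of its group (log2 fold change 1.16, SE 0.15). The adjusted p was 0.455 in edgeR and ran from 4.40e-07 in DESeq2 to 1.00 over 14 alternatives, of which 3 called it. Without ΔLYST-B6 replicate 2 it was called in edgeR, with an adjusted p of 0.00747. Cd59b, a membrane-anchored inhibitor of the complement attack complex, was at 38.3, 49.97 and 39.6 CPM against 25.6, 23.9 and 22.5 CPM, a log2 fold change of 0.83 with an SE of 0.12. The adjusted p of Cd59b was 0.659 in edgeR and 7.85e-05 in DESeq2, which was the 1 of 14 alternatives to call it. Its close copy Cd59a is not among the genes of the table.

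Several further genes were higher in every ΔLYST-B6 library without passing in edgeR. Coq10b, which binds coenzyme Q in mitochondria, was at 31.3, 28.7 and 32.5 CPM against 22.0, 22.1 and 20.2 CPM. Dynlt1b, a dynein light chain gene with near-identical copies beside it, was at 48.5, 48.6 and 51.6 CPM against 32.6, 36.8 and 36.2 CPM. Cnbd2, a gene of the testis with a cyclic nucleotide-binding domain, was at 103, 77.2 and 98.4 CPM against 69.6, 49.1 and 47.2 CPM. DESeq2 called all 3, at adjusted p-values of 0.0224, 0.0129 and 0.0406, Cnbd2 was also called in a single fit of all 24 libraries (0.0300), and over the 14 alternatives of each they reached 1.00.

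Eomes, the transcription factor of unipolar brush cells, was at 40.9, 19.9 and 31.5 CPM in the ΔLYST-B6 libraries and at 14.9, 15.7 and 8.13 CPM in WT. The groups did not overlap (log2 fold change 1.25, SE 0.33), with adjusted p-values from 0.00347 under the replicate block to 1.00. The other 2 markers of that cell type did not follow: Calb2 was at 492, 408 and 566 CPM against 516, 601 and 552 CPM, and Lmx1a at 3.27, 2.42 and 1.64 CPM against 2.51, 3.10 and 1.06 CPM. Nrros, which microglia use to activate TGF-β, was at 70.9, 46.4 and 29.6 CPM against 24.8, 28.5 and 25.4 CPM, and ΔLYST-B6 replicate 1 carried most of the difference. Nrros was called under the replicate block (adjusted p 0.0345, with a range of 0.0345 to 1.00 over its alternatives). In that fit ΔLYST-B6 replicate 3, the lowest of its group, does not enter the genotype effect. The log2 fold change was 1.19 there and 0.90 without the block.

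Kpna7, an importin of oocytes and early embryos, was seen in 2 libraries. It had 1, 1 and 2 counts in the ΔLYST-B6 libraries and 234, 416 and 2 counts in WT, so WT replicate 3 looked like the ΔLYST-B6 libraries. The gene did not pass the filter on low counts in the 6 libraries. DESeq2 called it (adjusted p 0.0302), and edgeR did so without WT replicate 3 (adjusted p 0.00293).

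Lower transcripts included 2 genes close to each other on chromosome 19. Ide, for the insulin-degrading enzyme (chr19:37268743-37337852), was at 83.3, 83.4 and 77.2 CPM in the ΔLYST-B6 libraries and at 137, 142 and 110 CPM in WT. Fgfbp3, for a secreted carrier of fibroblast growth factors (chr19:36917550-36919615), was at 12.3, 11.7 and 13.9 CPM against 22.0, 27.4 and 20.1 CPM. In both genes all ΔLYST-B6 libraries were below all WT libraries, with log2 fold changes of −0.67 (SE 0.11) and −0.88 (SE 0.14). Their adjusted p was 0.659 in edgeR, and over 14 alternatives it ran from 0.000571 and 0.00104, both in DESeq2, to 1.00. Between them lie 3 tested genes, named after their values were seen, and all 3 overlapped: Btaf1, a regulator of the TATA-binding protein (log2 fold change −0.46), Cpeb3, a translational repressor (0.06), and A330032B11Rik, of unknown function (−0.12). Btaf1 was at 55.8, 45.3 and 62.1 CPM against 84.1, 81.2 and 59.3 CPM. Of 15 other tested genes within 1 Mb of Ide, Fgfbp3 included, 1 was lower and 1, Hectd2, was higher without overlap (3.55% and 3.77% over all genes), and their median log2 difference was −0.02.

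Of the 10 lower genes with the smallest p, 7 remain. Mfge8, a secreted bridge between dying cells and phagocytes, was at 68.9, 68.7 and 67.2 CPM in the ΔLYST-B6 libraries and at 85.5, 86.1 and 83.3 CPM in WT, a small shift with little spread. Mid1, an X-linked ubiquitin ligase gene, was at 11.0, 11.4 and 10.8 CPM against 14.6, 26.2 and 19.4 CPM, so the WT libraries spread widely. Rasal1, an inhibitor of Ras, was at 28.1, 25.6 and 30.4 CPM against 33.4, 40.7 and 42.2 CPM. Myh11 (smooth muscle myosin), Npr1 (the receptor of atrial natriuretic peptide), Alpl (alkaline phosphatase) and Nrde2 (a nuclear RNA-processing factor) had log2 fold changes of −0.49, −0.64, −0.65 and −0.46. None of these 7 was called in edgeR or DESeq2, and Rasal1 was called in a single fit of all 24 libraries (adjusted p 0.0452, with a range of 0.0452 to 1.00).

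Lists built around the known cell biology of Lyst were close to the background. Of 34 lysosomal genes, 32 were tested, with 0 called in edgeR or DESeq2, 0 at an unadjusted p under 0.05 and a median log2 difference of 0.02 (−0.02 to 0.06 over the libraries left out). Over all genes, edgeR called 0.00706% and DESeq2 0.109%, and 1.07% were higher and 0.981% lower at an unadjusted p under 0.05 in edgeR. Ctsl and Gla were higher and Psap and Naglu lower without overlap, 2 of 32 each way against 3.77% and 3.55% over all genes. Psap, for the precursor of the saposins, with the highest mean CPM of the list, was at 2110, 2030 and 1992 CPM in the ΔLYST-B6 libraries and at 2229, 2115 and 2143 CPM in WT. The membrane protein gene Lamp1 overlapped at 381, 436 and 358 CPM against 339, 367 and 408 CPM, and so did Mcoln1 and Tfeb. Genes for lysosome-related organelles gave a median of 0.01 (−0.05 to 0.02) over 18 tested of 24, with 0 at an unadjusted p under 0.05 in edgeR, 0 called by DESeq2 and Bloc1s3 the 1 that did not overlap (lower, 3.55% over all genes).

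In the BEACH family, to which Lyst belongs, 8 of 9 genes were tested and the median log2 difference was −0.01 (−0.06 to 0.13 over the libraries left out). Nbeal1 was at 49.1, 46.8 and 55.9 CPM in the ΔLYST-B6 libraries and at 45.2, 37.4 and 36.4 CPM in WT. Wdfy4, a member active in dendritic cells, was at 1.03, 1.72 and 1.34 CPM against 0.637, 0.649 and 0.950 CPM. These were the 2 of 8 members that did not overlap (3.77% over all genes) and the 2 at an unadjusted p under 0.05 (1.07%), at log2 fold changes of 0.35 and 0.85, and neither was called in edgeR or DESeq2. Wdfy3, Lrba, Nbea and Wdr81 overlapped between the genotypes.

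Cell type markers of the cerebellum overlapped between the genotypes, Eomes excepted. Over all genes, 3.77% were higher and 3.55% lower without overlap. The 10 tested Purkinje cell genes had a median log2 difference of −0.10, which ran from −0.16 to 0.07 when each library was left out, and Calb1 was at 1042, 751 and 1067 CPM in the ΔLYST-B6 libraries and 939, 1071 and 901 CPM in WT. The 11 tested granule cell genes had a median of −0.18, which ran from −0.39 to 0.10, the latter without ΔLYST-B6 replicate 2. Interneuron genes had a median of −0.08 (−0.11 to −0.02), with glycine transporter gene Slc6a5 at 33.9, 33.2 and 26.4 CPM against 27.5, 21.6 and 25.0 CPM, an overlap of a single library. Slc6a5 was the 1 of 8 interneuron genes at an unadjusted p under 0.05 in edgeR (higher, 1.07% over all genes). Medians were −0.01 for Bergmann glia and astrocytes (−0.10 to 0.11 over the libraries left out), −0.00 for oligodendrocytes (−0.23 to 0.26), 0.21 for the 3 genes of unipolar brush cells (−0.20 to 0.50 when each library was left out) and −0.13 for endothelium (−0.26 to −0.05). Mbp, the main myelin gene, ranged over 5908 to 9545 CPM in the ΔLYST-B6 libraries and 4593 to 9279 CPM in WT. Choroid plexus (0.19, from −1.07 to 0.91 over the libraries left out) and meninges (0.01, from −0.19 to 0.18) had no gene at an unadjusted p under 0.05 in edgeR and none called by DESeq2. Over all genes, 1.07% were higher and 0.981% lower at that p, and DESeq2 called 0.109%.

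The lists of microglia and reactive astrocytes held no gene whose groups did not overlap. Over all genes the shares were 3.77% (higher) and 3.55% (lower), so 0 in lists this short is close to the background. The 12 homeostatic microglia genes had a median log2 difference of 0.06 (−0.11 to 0.20 over the libraries left out) with 0 non-overlapping, and P2ry12 was at 9.79, 15.8 and 10.2 CPM in the ΔLYST-B6 libraries and at 9.24, 10.8 and 11.7 CPM in WT. Their sum was highest in ΔLYST-B6 replicate 2, at 224 CPM against 145 to 176 CPM in the other 5. Of 17 genes of disease-associated microglia, 10 were tested, with a median of 0.00 (−0.01 to 0.12) and 0 non-overlapping. Trem2, the lipid receptor that drives that state, was at 5.80, 9.82 and 6.83 CPM against 5.58, 6.10 and 5.96 CPM. Reactive astrocyte genes had a median of −0.19 over 8 tested genes (−0.28 to −0.07 over the libraries left out), and Gfap overlapped at 202, 307 and 240 CPM against 242, 288 and 302 CPM.

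Complement genes had a median of 0.10 over 13 tested (−0.11 to 0.16 over the libraries left out), and Cd59b was the 1 of them that did not overlap (higher, 3.77% over all genes). C1qa was at 20.2, 33.2 and 22.9 CPM in the ΔLYST-B6 libraries and at 20.7, 22.3 and 27.0 CPM in WT. The interferon and MHC class I list had a median of −0.25 over 14 tested genes (−0.58 to 0.30 over the libraries left out), and WT replicate 2 stood behind it. Ifit3, an antiviral effector, was at 28.1, 25.0 and 21.9 CPM against 26.7, 104 and 15.5 CPM, and Irf7 was at 4.77, 3.78 and 6.01 CPM against 2.31, 26.2 and 4.03 CPM. The median of the list was 0.30 without that library. Tap1, the peptide transporter, was the 1 of 14 that was lower without overlap (3.55% over all genes), at 3.70, 2.72 and 2.72 CPM against 3.94, 11.6 and 4.06 CPM.

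Markers of blood and of other tissues were scarce or overlapped. The 5 listed T cell genes summed to at most 0.359 CPM in a library and none was tested. Neutrophil genes summed to at most 2.64 CPM, and S100a9 was the 1 tested (difference −0.05, from −0.57 to 0.50 over the libraries left out). Hba-a2 of red cells ranged over 572 to 738 CPM in the ΔLYST-B6 libraries and 377 to 975 CPM in WT, with a median of −0.00 over 3 tested genes (−0.42 to 0.27 over the libraries left out). Forebrain neuron genes had a median log2 difference of −0.22 over 10 tested, which ran from −0.30 to 0.17 over the libraries left out, and all 10 overlapped. The Y-linked gene Ddx3y was at 65.2 to 86.0 CPM in all 6 libraries and the X-inactivation transcript Xist did not pass the filter, so the 6 libraries did not differ in the sex their transcripts show. Kdm5d, also Y-linked, was at 55.8, 47.5 and 51.6 CPM against 44.7, 41.6 and 45.4 CPM, and the 4 tested sex-linked genes had a median of 0.16 (0.09 to 0.22).

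The forebrain of the same 6 animals, sequenced at the same age, allowed a test of whether the genotype effect differed between the regions. In edgeR the interaction called 0 of 14741 genes (0%), with 555 at an unadjusted p under 0.05, and DESeq2 called 3, Egr1, Arc and Pik3c3. Neither fit held a term for the animal, so the SEs and p-values given here ignore that the regions share animals. With the animal as a block edgeR again called 0 genes (smallest adjusted p 0.993), and DESeq2 was not fitted with that block. When each animal was left out, the 555 ran from 283 (without WT replicate 3) to 1131 (without ΔLYST-B6 replicate 2). Pik3c3 was at 116, 115 and 122 CPM in the forebrain libraries labelled ΔLYST-B6 and at 70.0, 65.6 and 65.8 CPM in WT. The groups were apart in both regions, and the log2 fold change in the cerebellum exceeded that in the forebrain by 0.45 (SE 0.10), at an adjusted p of 1.00 in edgeR and 0.0365 in DESeq2, with a range of 0.0365 to 1 over 11 alternatives. Arc, flat in the cerebellum, was at 334, 276 and 310 CPM in the ΔLYST-B6 forebrain and at 207, 176 and 143 CPM in the WT forebrain. Its effect in the cerebellum was lower than that in the forebrain by −0.99 (SE 0.19), and that of Egr1 by −0.82 (SE 0.15), with adjusted p-values of 1.00 in edgeR and 0.0116 in DESeq2 for both, and ranges of 0.0116 to 1. Wee2 and Abra, also among the 5 smallest p-values of edgeR, had at most 17 counts in a cerebellar library.

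Other genes can be set side by side across the regions of these animals, with the difference not called. Fos was at 49.4, 62.0 and 60.5 CPM in the ΔLYST-B6 forebrain and at 32.7, 30.6 and 27.1 CPM in the WT forebrain, apart as in the cerebellum. Ide was at 72.0, 72.2 and 74.1 CPM against 113, 126 and 91.4 CPM, and Lmbr1 at 46.3, 28.8 and 40.3 CPM against 16.8, 13.4 and 15.6 CPM. Nr4a2, by contrast, was at 41.1, 44.5 and 44.2 CPM against 44.1, 40.4 and 48.0 CPM in the forebrain, and Cirbp at 92.6, 85.6 and 94.5 CPM against 86.2, 103 and 90.6 CPM. The interaction gave 1.40 (SE 0.45) for Nr4a2 and −0.46 (SE 0.12) for Cirbp, neither called in edgeR. The regions share animals, so they do not count as separate replicates of the genotype.

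Cerebella of other animals at 18 months allowed a test against age. The interaction called 23 of 14656 genes (0.157%) in edgeR, and all 23 had a lower effect at 3 months than at 18 months. The count was 8 under the replicate block, 5 to 29 when each of the 6 libraries of 3 months was left out, and 52 in DESeq2, of which 5 had a higher effect at 3 months. Of the 23, 21 were also among the 109 genes called at 18 months itself, so most of the list describes the older group. Cst7, Gpnmb, Itgax and Lilrb4a of activated microglia had the most negative differences, from −4.59 to −3.43. Gpnmb, a glycoprotein of lipid-laden phagocytes, was at 2.35, 2.31 and 1.99 CPM in the ΔLYST-B6 libraries at 3 months and at 2.19, 2.35 and 1.86 CPM in WT. The 3-month groups overlapped, whereas at 18 months they were at 64.2, 77.0 and 47.1 CPM against 4.98, 4.60 and 2.97 CPM.

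Pik3c3, at 18 months, was at 94.1, 114 and 68.8 CPM in the ΔLYST-B6 libraries and at 94.0, 76.3 and 65.7 CPM in WT, with the groups overlapping. The effect at 3 months was larger by 1.04 (SE 0.23), at an adjusted p of 0.161 in edgeR, so the difference between the ages was not called. Lmbr1 also overlapped at 18 months, at 25.9, 33.5 and 24.9 CPM against 27.7, 23.5 and 32.3 CPM (difference 1.15, SE 0.23, adjusted p 0.09997). Fos was at 28.1, 44.7 and 82.6 CPM against 83.7, 42.2 and 86.6 CPM (difference 1.68, SE 0.60, adjusted p 0.927). Ide and Fgfbp3 were among the 23 genes called, and both lost the call under the replicate block (adjusted p 0.192 and 0.0820). That block joins different animals of both ages by title number alone. The log2 differences of Ide and Fgfbp3 stayed about as large, at −1.10 and −1.48 under the block against −1.13 and −1.40 without it. Ide was at 108, 131 and 84.4 CPM in the ΔLYST-B6 libraries of 18 months and at 82.0, 75.1 and 77.9 CPM in WT, above WT where at 3 months it was below.

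**Figure D4:**
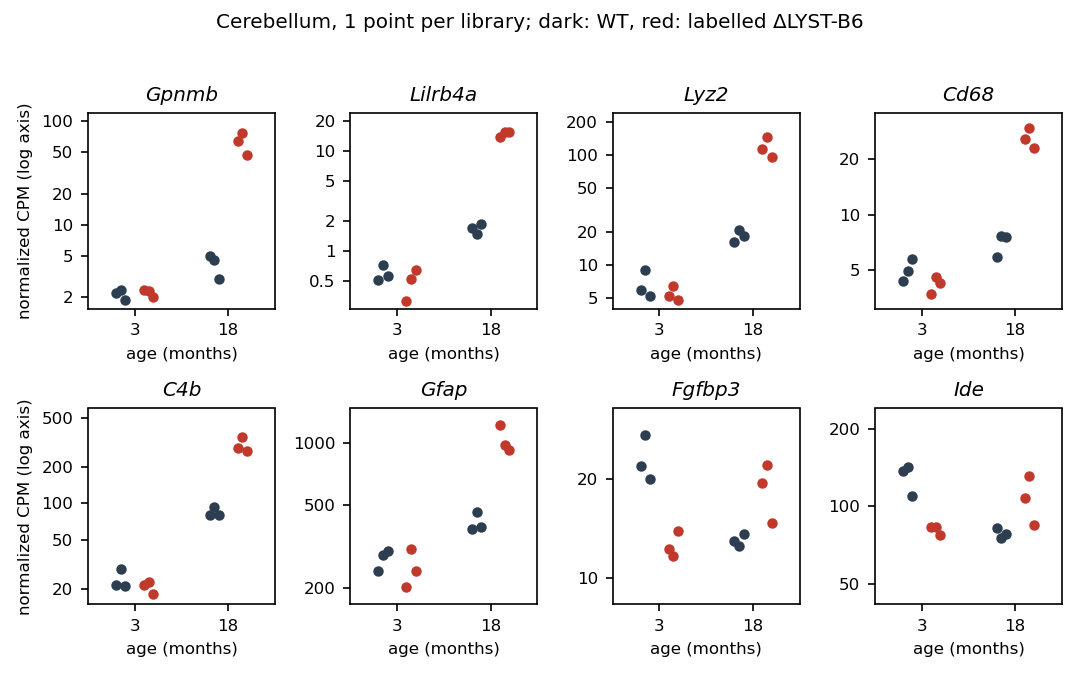
Normalized CPM (log axis) of 8 genes in the cerebellum at 3 and 18 months, 1 point per library, WT dark and ΔLYST-B6-labelled red, for which edgeR called the difference between the ages of the genotype effect. Gpnmb has 1.86 to 2.35 CPM in all 6 libraries of 3 months, and Ide is lower in the ΔLYST-B6 libraries at 3 months (77.2 to 83.4 CPM against 110 to 142 CPM).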

How the data were processed

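The values are whole-number read counts per gene, the count table the authors deposited, from polyA libraries sequenced on a NovaSeq instrument and aligned with HISAT2 to mm10. The methods credit the counting to DESeq2 and the sources used here name no annotation. All 6 libraries of the 3-month cerebellum were used, 3 per genotype, with 16774444 to 27969529 counts each. No 2 libraries of a group were identical. The filter was filterByExpr of edgeR, with a minimum count of 10 and a minimum total of 15. TMM gave the normalization, and a robust quasi-likelihood model with genotype alone was fitted, with Benjamini-Hochberg adjustment over all genes tested and calls at or below 0.05. The SE of an edgeR log2 fold change was worked back from the test, as its absolute value over the square root of the F statistic. The interactions with region (12 libraries at 3 months) and age (12 cerebellar libraries) used the same settings. The value of a list is its median difference in mean log2 CPM (prior count 2). Self-written code was tested on simulated data. R 4.3.3 ran DESeq2 1.42.0, edgeR 4.0.16 and limma 3.58.1, and Python 3.11.15 ran matplotlib 3.10.9 and pandas 2.3.3.

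Genes were named by a rule: Lyst and its tested neighbours within 2 Mb, each gene called, the 10 higher and the 10 lower genes with the smallest p among those that did not overlap, genes called by DESeq2 or under the replicate block, genes the study names, the most abundant and the smallest-p member of each list, the 5 genes with the smallest p in each interaction and tested genes within 1 Mb of a gene called. Other genes, among them further list members and the neighbours of Ide, were named after their values were seen. The members and the lists were chosen with earlier results of these data known.

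Alternatives were DESeq2's size factors, DESeq2, limma-voom, 2 other filters, library size without the 10 most abundant genes, a single fit of 24 libraries, blocks and leaving out each of the 6 libraries (each of the 6 animals for the region interaction). The labels name no shared litter or day, but sample titles number the replicates. Residuals of ΔLYST-B6 and WT libraries with the same title number correlated at 0.183, 0.219 and 0.422 across genes, so the number was also fitted as a block. Pairs with different numbers ran from −0.461 to 0.391, so the correlations do not single out the shared number. Number 1 is carried by 2 WT libraries and number 3 by 1 ΔLYST-B6 library alone. That library, replicate 3, has a block level to itself and does not enter the genotype effect of the block fit. The numbers start again at 1 within each animal number, so a shared number is no known link between the groups. In the age interaction the block joins different animals of both ages by this number alone. Guide sequences and the time of collection were not analysed here, and 2 members of the lists are not reported here.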

Additional observations from a re-analysis of the deposited data

Results flagged for a closer look

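In the cerebellum, 23 genes passed edgeR's test of the difference between the ages, and 8 of them are followed here: the 5 with the smallest p, Gfap, Fgfbp3 and Ide. Their genotype effect at 3 months was below that at 18 months. The log2 difference (3 months minus 18 months) was −3.86 for Gpnmb, −3.43 for Lilrb4a, −2.95 for Lyz2, −2.16 for Cd68, −2.04 for C4b, −1.48 for Gfap, −1.40 for Fgfbp3 and −1.13 for Ide. The 3-month groups overlapped for the first 6 of these.

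Lyz2, the lysozyme gene of macrophages, was at 5.27, 6.51 and 4.84 CPM in the 3-month libraries labelled ΔLYST-B6 and at 5.94, 8.95 and 5.24 CPM in WT, and at 114, 145 and 95.0 CPM against 16.4, 20.8 and 18.5 CPM at 18 months. C4b, of the classical complement pathway, was at 21.3, 22.8 and 17.9 CPM against 21.6, 28.8 and 21.0 CPM at 3 months. Cd68, a lysosomal membrane protein gene of phagocytes, was at 3.70, 4.55 and 4.24 CPM against 4.38, 4.91 and 5.74 CPM. The adjusted p was at or below 0.05 in all 10 alternatives for Gpnmb, Lilrb4a, Lyz2, Cd68 and C4b, and at most 0.0158.

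The other 3 calls were lost under some of the alternatives, with differences of about the same size. The log2 difference ran from −1.49 to −1.27 for Fgfbp3, −1.23 to −1.07 for Ide and −1.65 to −1.35 for Gfap. With the replicate block the adjusted p was 0.0820 for Fgfbp3, 0.192 for Ide and 0.0875 for Gfap, against 0.0239, 0.0392 and 0.0197 without it. For Fgfbp3 it was 0.0800 without ΔLYST-B6 replicate 1 and 0.0729 without WT replicate 2. Ide kept the call without 1 of the 6 libraries of 3 months, WT replicate 3 (0.0428), and its range over the alternatives was 7.24e-05 to 0.192. Gfap lost the call without ΔLYST-B6 replicate 1 (0.0542), ΔLYST-B6 replicate 3 (0.0709), WT replicate 2 (0.0660) and WT replicate 3 (0.0585). Fgfbp3 was at 19.5, 22.0 and 14.7 CPM in the ΔLYST-B6 libraries of 18 months and at 12.9, 12.5 and 13.6 CPM in WT, above WT where it was below at 3 months.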

How the results depend on the processing

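The number of genes called between the genotypes was 1 in edgeR, 16 in DESeq2, 5 in a single fit of 24 libraries and 6 with the replicate block, and 0 to 2 when each library was left out (0 without WT replicate 1, with 345 genes at an unadjusted p under 0.05, and 0 without WT replicate 2, with 241). At that p, 290 genes passed in edgeR, 756 with the replicate block and 741 in the single fit. Without ΔLYST-B6 replicates 1, 2 and 3 in turn there were 183, 750 and 582, and without WT replicate 3 there were 170. Other normalizations, filters and limma-voom called 1 gene. The region interaction gave 0 in edgeR, 3 in DESeq2 and 0 with either block. The age interaction gave 23 in edgeR, 52 in DESeq2, 8 with the replicate block and 5 to 29 when each of the 6 libraries of 3 months was left out. With the replicate block 8 of the 23 age calls were kept and 15 were lost, among them Fgfbp3, Ide and Gfap. Of the 45 gene results followed through the alternatives, the block changed no other call than those given. Of 582 alternative values of 45 gene results, 535 kept the direction and the side of the threshold, 27 passed it where edgeR had not, 16 no longer did and 4 changed sign. The log2 fold change of Lyst, −0.04, was 0.0612 with the replicate block, 0.0646 without ΔLYST-B6 replicate 3 and 0.00684 without WT replicate 1, and −0.131 to 0.0646 over the libraries left out. That of Gpnmb, 0.0538, was −0.0316 without WT replicate 3 and 0.130 at most over the libraries left out. The cause was not tested. For the immediate early genes at an unadjusted p under 0.05, alternatives chosen after seeing the data gave 8 to 10 when each library was left out and 10 with the block, against 10.

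Limits are the 3 libraries per group, the number shared by all knockout animals, the parallel breeding of the lines, and the shallower ΔLYST-B6 replicate 2. Genes near the floor of 0.107 to 0.177 CPM carry few counts.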

Other observations

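Some genes varied widely between single libraries, and 6 of them, chosen after their values were seen, are given here. Of these, Cartpt, Shox2, Slc6a2 and Tph2 are among the 15 genes with the largest weights on the first principal component. Tph2, the serotonin synthesis enzyme of the raphe, was at 0.463, 50.03 and 0.864 CPM in the libraries labelled ΔLYST-B6 and at 0.677, 0.758 and 1.44 CPM in WT. Cartpt, a neuropeptide precursor, was at 0.249, 37.7 and 0.0864 CPM against 1.75, 0.361 and 0.988 CPM. Both were high in ΔLYST-B6 replicate 2 alone. Slc6a2, the noradrenaline transporter, was at 2.42, 13.1 and 0.0432 CPM against 0, 0.289 and 3.30 CPM, and Dbh, which makes noradrenaline, at 2.81, 9.28 and 0.0864 CPM against 0, 0.794 and 2.77 CPM. Th, of dopamine and noradrenaline synthesis, was at 8.75, 39.4 and 6.40 CPM against 5.78, 8.55 and 3.72 CPM. Shox2 was at 4.55, 15.1 and 0.0864 CPM against 12.2, 0.469 and 13.2 CPM, so that a library of either genotype could be high or low. The part of this tissue in the differences between the genotypes was not tested.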
